A study of Mus musculus with 8 samples.

Results

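The collagen genes and the genes that process collagen were described in gastrocnemius muscle, a calf muscle of mostly fast fibres. Rows were chosen by gene symbol alone: every collagen chain gene, the prolyl 4-hydroxylase, lysyl hydroxylase and lysyl oxidase families, and Serpinh1, Adamts2, Bmp1, Pcolce and Pcolce2. This gave 60 of the 25655 gene rows. They comprise 11 fibrillar collagen genes, 6 basement membrane (type IV) genes, 6 type VI genes, 21 other collagen genes and 16 processing genes. All samples came from male wild-type mice at day 4. The 3 sepsis samples received cecal slurry, a suspension of gut contents that produces polymicrobial sepsis, and the 5 control samples received 10% glycerol. Neither the age and strain of the mice nor whether each library is a separate animal was given in the sources used here, so p-values measure the spread between these libraries, which may be technical in part.

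Collagens are triple helices of 3 chains. Fibrillar types I, III and V give connective tissue its tensile strength, type IV forms the sheet of the basement membrane around each muscle fibre and capillary, and type VI forms beaded filaments that link that sheet to the surrounding matrix. In muscle the fibrillar and type VI chains are made mainly by interstitial fibroblasts, while type IV chains are also made by endothelial and muscle cells. New chains are hydroxylated on proline and lysine and folded with the chaperone HSP47 in the endoplasmic reticulum. Outside the cell their propeptides are cut off and lysyl oxidases cross-link the fibres.

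Reads were counted per gene from 3′ end libraries, which give about 1 read per captured transcript, so values are given as CPM (read counts scaled to a common library size) with no division by transcript length. Libraries held 3337851 to 3765726 reads in sepsis and 3086277 to 4016329 in control. Collagen and processing genes together took 0.0377% to 0.0617% of reads in sepsis and 0.104% to 0.270% in control. Muscle fibre markers were abundant throughout: the summed level of 10 of them was 71165 to 100926 CPM in sepsis and 159434 to 189535 CPM in control. Control 1 stood apart from the other controls, with a summed fibrillar collagen level 2.42 times their mean. Its leukocyte markers were 2.26 times their mean, its tendon markers 1.33 times and its fibroblast markers 0.96 times, and the part of these in its collagen level was not tested. Values without control 1 are given for the genes flagged for it by a gap test described below. They are also given for the fibrillar and type VI sums and for some other genes.

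Most fibrillar and type VI collagen genes were lower in septic muscle, while the main pair of type IV genes and Adamts2 were higher. Among the tested processing genes 8 of 13 were lower. With libraries scaled by their totals alone 4 were lower and 2 higher. Of the 60 genes, 35 had enough reads to be tested. Among these 25 fell and 3 rose by edgeR's quasi-likelihood test at a Benjamini-Hochberg adjusted p under 0.05 (3 sepsis against 5 control libraries), with a median log2 fold change of -1.50 (sepsis minus control). Over all 9810 genes tested, 50.4% were called, with 25.2% lower and 25.2% higher, and the median log2 fold change was 0.01. The groups did not overlap in 22 members below and 3 above control, against 24.3% and 23.1% of all genes tested. A member could pass the expression filter through 1 group alone. This was so for 17 of the 35, each through the control libraries, so the counts describe the abundant members and do not stand for all 60.

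The 8 tested fibrillar genes fell, with a median log2 fold change of -2.96 and a range of -5.26 to -1.06. The 4 tested type VI genes fell by between 2.93 and 2.65 on the log2 scale. Of 3 tested type IV genes 2 rose, with a median of 0.47. Among the other collagens 5 of 7 fell, with a median of -2.13, and among processing genes 8 of 13 fell and 1 rose, with a median of -0.97. The filter favours falls among members that passed it through the controls alone: 5 of the 8 fibrillar, 3 of the 4 type VI, 1 of the 3 type IV, 5 of the 7 other collagen and 3 of the 13 processing genes. The members that passed it in the sepsis libraries too were Col1a2, Col5a2 and Col5a3 among the fibrillar genes, Col6a3 in type VI, Col4a1 and Col4a2 in type IV, Col15a1 and Col18a1 among the others, and 10 processing genes, of which 5 fell and 1 rose.

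**Figure D1:**
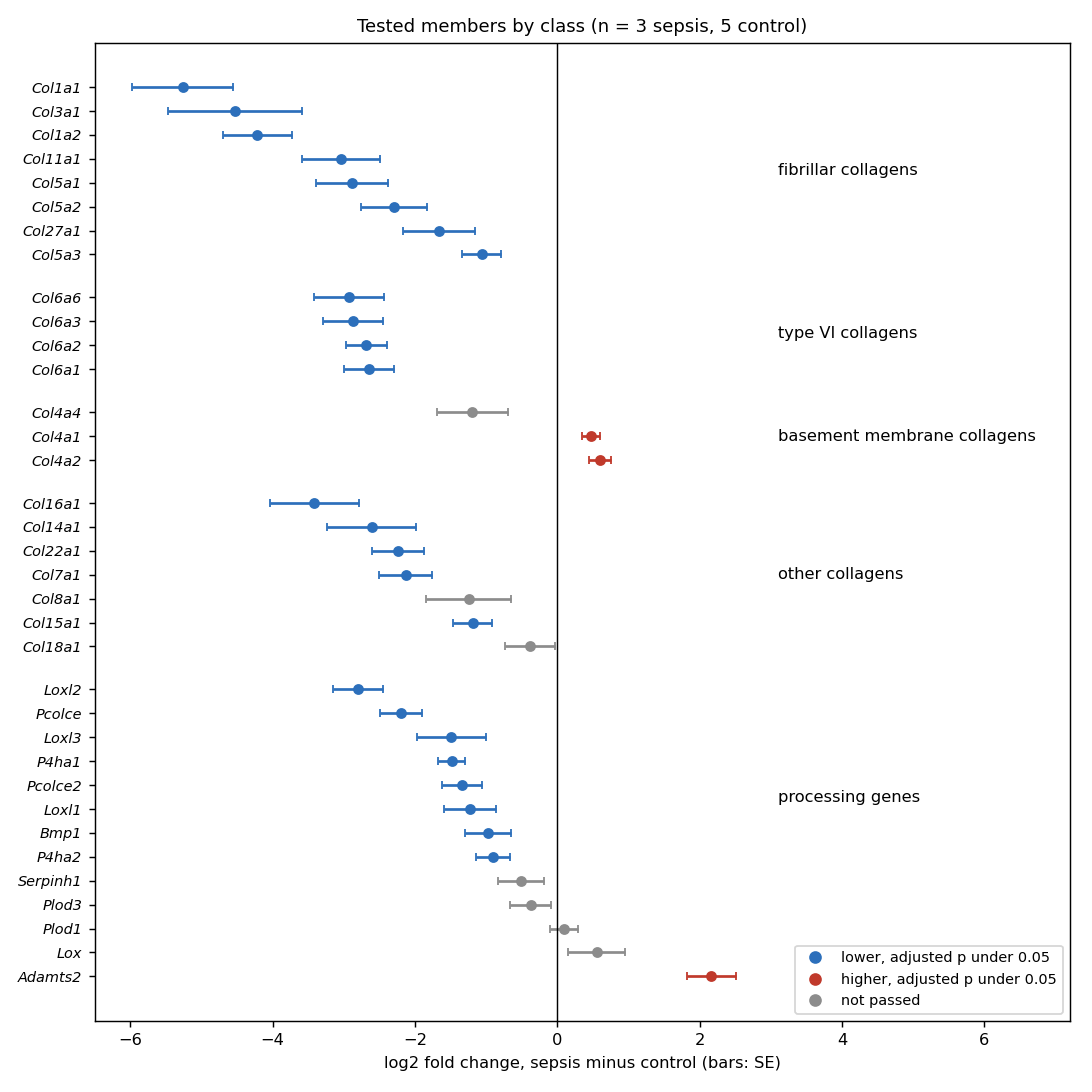
Log2 fold change (sepsis minus control, x axis) of the 35 tested genes, grouped by class down the page, with bars for the SE. The fibrillar and type VI genes lie to the left of 0, Col4a1, Col4a2 and Adamts2 lie to the right, and the processing genes spread from -2.80 to 2.16.

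Type I collagen, the main fibre-forming collagen of muscle connective tissue, is built of 2 chains of Col1a1 and 1 of Col1a2, and both genes fell steeply. Col1a2 (ENSMUSG00000029661) was the most abundant member in control muscle. It had 21.7, 53.1 and 46.4 CPM in the sepsis libraries, against 1309, 593, 476, 819.7 and 588 CPM in the controls. Even the lowest control was thus several times the highest sepsis library. The log2 fold change was -4.22 (SE 0.49), an 18.6-fold fall at an adjusted p of 0.000209. Without control 1 the fall was 15.3-fold. Col1a1 (ENSMUSG00000001506) had 1.85, 6.28 and 10.7 CPM in sepsis, against 483, 182, 129, 269 and 171 CPM in control. These are 7, 30 and 47 reads in the sepsis libraries, where no control held fewer than 430. Its log2 fold change was -5.26 (SE 0.71), a 38.4-fold fall (adjusted p = 0.000633), and without control 1 it was 29.3-fold.

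Type III collagen, a homotrimer of Col3a1 that forms thin fibrils with type I, fell to a similar degree. Col3a1 had 1.06, 10.5 and 10.9 CPM in sepsis, against 455, 136, 90.9, 110.2 and 96.5 CPM in control. Sepsis 1 was low even among the sepsis libraries, with 4 reads, and control 1 was high among the controls, with 1647. The log2 fold change was -4.53 (SE 0.94), with an adjusted p of 0.00603. It did not pass with limma-voom and sample quality weights, at an adjusted p of 0.0897. Without control 1 it was -3.82, a 14.1-fold fall.

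Type V collagen, which nucleates fibrils and sets their diameter, fell less. Col5a1 had 2.12, 3.77 and 5.23 CPM in sepsis, against 55.8, 26.6, 18.9, 20.5 and 16.8 CPM in control. Its partner Col5a2, which neighbours Col3a1 in the genome, had 3.18, 4.39 and 4.55 CPM in sepsis, against 42.0, 16.9, 15.3, 11.9 and 14.0 CPM in control. For both genes all sepsis libraries lay below all controls and control 1 was the highest. Their log2 fold changes were -2.88 (SE 0.50) and -2.30 (SE 0.46), and without control 1 they were -2.46 and -1.83. Col5a3, the third chain of the family, had 5.56, 12.8 and 13.0 CPM in sepsis, against 19.6, 25.3, 21.0, 28.8 and 15.9 CPM in control. The groups lay close together without overlapping, and control 1 was not the highest. Its fall of 1.06 on the log2 scale (SE 0.27, adjusted p = 0.00566) was the smallest of the fibrillar genes tested and did not pass with library totals alone, at -0.64.

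Col11a1, a chain of the cartilage-type fibrils that also takes part in type V molecules, had 0.530, 0.837 and 0.682 CPM in sepsis, against 9.95, 4.38, 2.40, 8.28 and 4.76 CPM in control. It fell by 3.04 on the log2 scale (SE 0.54, adjusted p = 0.000445). Col27a1, another cartilage-type gene, fell by 1.67 (SE 0.50), but its groups overlapped and its call was lost without sepsis 2, at -1.40, and with limma-voom, at -1.66. It passed no expression filter without control 1, 2 or 3. Col11a2 and Col24a1 were too sparse to be tested, with 3 and 2 reads over the sepsis libraries and 34 and 22 over the controls. Controls exceeded sepsis by a ratio of 9.13 for Col11a2 (95% counting interval 2.87 to 46.5) and 8.86 for Col24a1 (2.18 to 77.8). Col2a1, the cartilage collagen, had 0 reads in sepsis and 5 in control.

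**Figure D2:**
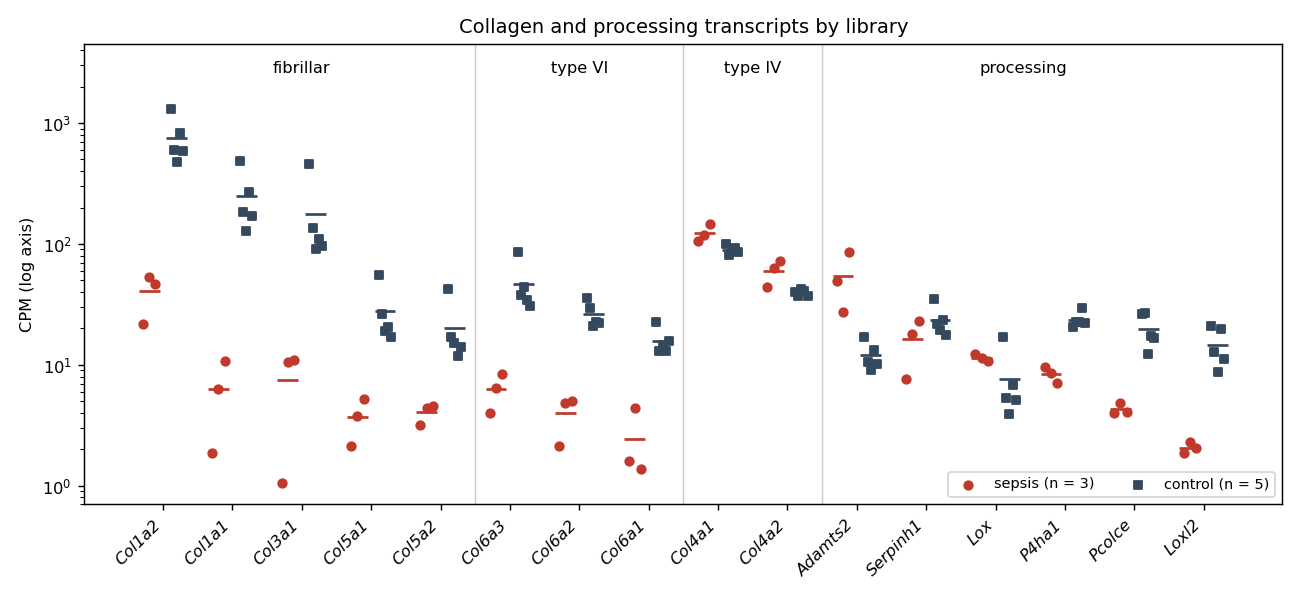
CPM on a log axis for 16 members, with sepsis libraries (circles, n = 3) left of control libraries (squares, n = 5) and the mean of each group as a bar. Fibrillar and type VI genes separate widely, type IV genes narrowly and in the other direction, and the single high control square of Col3a1 at 455 CPM is control 1.

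Type VI collagen is assembled from the chains of Col6a1, Col6a2 and Col6a3, and the 3 genes fell by similar amounts. Col6a3 had 3.97, 6.49 and 8.41 CPM in sepsis, against 86.3, 37.5, 43.8, 34.2 and 30.8 CPM in control, a log2 fold change of -2.87 (SE 0.42, adjusted p = 0.000348) that was -2.52 without control 1. Col6a2 had 2.12, 4.81 and 5.002 CPM in sepsis, against 35.4, 29.4, 21.0, 22.7 and 22.2 CPM in control. Its change of -2.68 (SE 0.28) had the smallest adjusted p of the 35 genes, 6.18e-06. The groups of all these chains were well apart, and for Col6a2 the controls were close to one another. Col6a1, next to Col6a2 in the genome, had 1.59, 4.39 and 1.36 CPM in sepsis, against 22.7, 13.1, 14.7, 13.0 and 15.9 CPM in control. Its change of -2.65 (SE 0.36) was -3.40 without sepsis 2. Col6a6, an alternative chain that can take the place of Col6a3, had 0.265, 0.837 and 0.682 CPM in sepsis, against 2.49, 6.25, 4.80, 6.84 and 4.45 CPM in control. It fell by 2.93 (SE 0.49), and here control 1 was the lowest control. Col6a5 had 0 reads in sepsis and 2 in control, and Col6a4 had no read among 28693257 in all libraries, which allows up to 0.105 CPM by counting error.

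Type IV collagen of most basement membranes consists of 2 chains of Col4a1 and 1 of Col4a2, and these genes rose by a small amount. Col4a1 (ENSMUSG00000031502) had 106, 118 and 146 CPM in sepsis, against 99.5, 80.7, 87.6, 92.9 and 85.4 CPM in control. Col4a2 (ENSMUSG00000031503) had 43.7, 63.0 and 72.1 CPM in sepsis, against 40.1, 37.2, 42.0, 41.1 and 36.8 CPM in control. Every sepsis library lay above every control, although sepsis 1 exceeded the highest control only slightly for both. The log2 fold changes were 0.47 (SE 0.13, adjusted p = 0.00781) for Col4a1 and 0.60 (SE 0.15, adjusted p = 0.00557) for Col4a2, increases of 1.38-fold and 1.51-fold. With library totals alone they were 0.88 and 1.02. Neither gene passed with the replicate number as a block in the fit, at 0.46 and 0.56. The minor chains behaved otherwise. Col4a4 had 19 reads in sepsis and 55 in control, a log2 fold change of -1.19 (SE 0.50) that did not pass, at an adjusted p of 0.0598, and passed without control 1, at -1.42. Col4a3, Col4a5 and Col4a6 were too sparse to be tested.

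Col4a1 and Col4a2 lie head to head and start from opposite strands. In the RefSeq gene models of GRCm38.p6, an earlier build than that of the counts, their starts are 21 bases apart and the 5′ ends overlap. Reads of these libraries come from the 3′ ends, away from that overlap. The windows from 250 bases before to 50 after each start are printed with those of Adamts2, the only processing gene called higher, and Col1a2, the most abundant gene that fell. The windows are chr8:11312777-11313076 on the minus strand for Col4a1, chr8:11312555-11312854 on the plus strand for Col4a2, chr11:50601835-50602134 on the plus strand for Adamts2 and chr6:4505368-4505667 on the plus strand for Col1a2. Capitals mark the motif CCAAT, the GC box written GGGCGG and the TATA box written TATAAA, on either strand, and the windows run 5′ to 3′.
Adamts2: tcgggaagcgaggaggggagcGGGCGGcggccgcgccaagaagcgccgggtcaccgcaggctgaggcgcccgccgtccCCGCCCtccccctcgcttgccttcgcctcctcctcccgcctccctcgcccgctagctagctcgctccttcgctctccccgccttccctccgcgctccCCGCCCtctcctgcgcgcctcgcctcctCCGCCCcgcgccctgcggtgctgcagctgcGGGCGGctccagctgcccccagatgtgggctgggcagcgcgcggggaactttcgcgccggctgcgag
Col4a1: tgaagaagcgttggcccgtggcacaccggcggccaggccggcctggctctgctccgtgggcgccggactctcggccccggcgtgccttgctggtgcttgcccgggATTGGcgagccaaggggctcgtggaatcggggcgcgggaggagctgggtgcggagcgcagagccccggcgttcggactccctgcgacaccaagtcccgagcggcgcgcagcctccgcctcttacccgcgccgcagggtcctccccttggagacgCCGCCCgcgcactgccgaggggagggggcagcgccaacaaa
Col4a2: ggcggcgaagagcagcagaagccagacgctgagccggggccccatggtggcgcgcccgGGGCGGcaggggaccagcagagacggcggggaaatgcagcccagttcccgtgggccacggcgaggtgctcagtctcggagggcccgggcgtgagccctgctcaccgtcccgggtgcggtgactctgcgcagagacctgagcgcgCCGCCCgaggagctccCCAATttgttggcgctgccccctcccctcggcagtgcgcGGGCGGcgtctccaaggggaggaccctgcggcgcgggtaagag
Col1a2: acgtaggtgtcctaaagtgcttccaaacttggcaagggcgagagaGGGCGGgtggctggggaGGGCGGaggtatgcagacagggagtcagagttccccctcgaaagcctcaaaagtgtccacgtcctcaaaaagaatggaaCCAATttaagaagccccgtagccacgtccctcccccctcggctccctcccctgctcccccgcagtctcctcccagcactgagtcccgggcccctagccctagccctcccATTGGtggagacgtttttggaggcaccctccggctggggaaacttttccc
The Col4a1 and Col4a2 windows share 78 bases, read from opposite strands. GGGCGG occurs 5 times in the Adamts2 window, once in that of Col4a1, 3 times in that of Col4a2 and 2 times in that of Col1a2. CCAAT occurs once in the windows of Col4a1 and Col4a2 and 2 times in that of Col1a2, and it is not among the letters of the Adamts2 window. TATAAA is in none of these 4 windows. Of all 32851 windows of this length, 35.7% hold GGGCGG, 37.4% hold CCAAT and 13.6% hold TATAAA. Among the called members with a window, 3 of 3 of the higher genes and 14 of 18 of the lower genes hold GGGCGG. For CCAAT these counts were 2 of 3 and 5 of 18, and for TATAAA 0 of 3 and 2 of 18. The higher genes are not separate cases, since Col4a1 and Col4a2 share part of their windows.

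Of the 7 collagens tested outside these families 5 fell. Col14a1, Col16a1, Col22a1, Col7a1 and Col8a1 passed the expression filter through the controls alone, which favours falls. Of the 2 that passed it in sepsis too, Col15a1 fell and Col18a1 had no called change. Col14a1, a collagen that binds the surface of fibrils, had 0.530, 2.93 and 1.36 CPM in sepsis, against 23.2, 6.88, 6.30, 7.203 and 7.62 CPM in control. It fell by 2.61 on the log2 scale (SE 0.62), by 2.05 without control 1 and by 3.36 without sepsis 2. Col16a1, of the same fibril-associated group, had 0, 0.628 and 0.910 CPM in sepsis, against 11.3, 5.63, 4.80, 5.40 and 2.86 CPM in control, a log2 fold change of -3.42 (SE 0.63, adjusted p = 0.000569). In these genes every sepsis library was below every control, but the sepsis values rest on a few reads. Col22a1, a collagen of the junction between muscle and tendon, had 0.795, 2.09 and 1.36 CPM in sepsis, against 5.53, 5.63, 6.90, 7.203 and 9.84 CPM in control. It fell by 2.24 (SE 0.36, adjusted p = 0.000196), and control 1 was the lowest control. Col7a1, the chain of anchoring fibrils, had 0.795, 2.09 and 1.36 CPM in sepsis, against 5.25, 6.57, 5.10, 6.48 and 9.21 CPM in control, and fell by 2.13 (SE 0.37).

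Col15a1 and Col18a1 encode the collagens that line basement membranes without belonging to type IV, and neither went up with Col4a1. Col15a1 had 3.44, 11.1 and 7.05 CPM in sepsis, against 18.8, 16.6, 15.6, 16.9 and 15.9 CPM in control. Its controls were nearly equal, and its fall of 1.19 on the log2 scale (SE 0.28, adjusted p = 0.00299) was 0.88 without sepsis 1. Col18a1, the source of endostatin, had a log2 fold change of -0.38 (SE 0.35) that did not pass. Col8a1, a short-chain collagen of vessel walls, had 2.12, 5.44 and 1.82 CPM in sepsis, against 18.2, 5.31, 5.10, 4.68 and 4.13 CPM in control. Its groups overlapped and its change of -1.25 (SE 0.60) did not pass, with -0.59 without control 1. Of the 14 other collagens not tested, Col9a1 had 1 read in sepsis and 23 in control, a ratio of 18.5 (95% counting interval 3.01 to 763), with 0 to 11 reads in single controls. Col12a1 had 5 reads in sepsis and 41 in control, and Col8a2 had 5 in sepsis and 31 in control, both with every sepsis library below every control. Col19a1 had more reads in sepsis, 28 against 20 in control, and Col28a1 had 8 in sepsis and 5 in control. Col13a1 had 12 reads in sepsis and 16 in control, and Col10a1 had no read in any library.

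Processing genes went both ways. Proline hydroxylation, which lets the triple helix hold at body temperature, is done by an enzyme whose catalytic subunits are P4ha1 to P4ha3. P4ha1 had 9.54, 8.58 and 7.05 CPM in sepsis, against 20.7, 22.5, 22.8, 29.5 and 22.2 CPM in control. Control 4 was the highest control and the groups lay well apart. It fell by 1.49 on the log2 scale (SE 0.19, adjusted p = 2.98e-05). P4ha2 had 4.77, 5.65 and 6.37 CPM in sepsis, against 8.02, 10.3, 8.998, 13.7 and 12.1 CPM in control. Its fall of 0.91 (SE 0.24) did not pass with library totals alone, at -0.49. P4ha3 had 0 reads in sepsis and 9 in control, 6 of them in control 1, which leaves 3 reads in the other controls and no fold to give.

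Lysine hydroxylation, which prepares cross-link sites, and folding did not show a called change. Plod1 had 9.01, 13.8 and 13.9 CPM in sepsis, against 11.9, 10.6, 11.4, 11.5 and 12.1 CPM in control, a log2 fold change of 0.10 (SE 0.19). Plod3 had 5.03, 8.58 and 10.9 CPM in sepsis, against 14.9, 12.5, 8.70, 7.56 and 9.53 CPM in control, a log2 fold change of -0.38 (SE 0.28). The groups overlapped in both genes, and with library totals alone Plod1 passed as higher, at 0.52, while Plod3 was at 0.04. Serpinh1, which encodes HSP47, had 7.68, 18.0 and 23.2 CPM in sepsis, against 34.8, 21.6, 19.5, 23.4 and 17.8 CPM in control. Sepsis 1 lay below every control while the other sepsis libraries lay within their range, and the change of -0.51 (SE 0.32, adjusted p = 0.205) did not pass. Without sepsis 1 it was -0.20.

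Propeptide removal held both directions. Adamts2 (ENSMUSG00000036545), the protease that removes the amino-terminal propeptide of fibrillar procollagens, had 49.5, 27.2 and 86.0 CPM in sepsis, against 17.1, 10.6, 8.998, 13.3 and 10.2 CPM in control. Every sepsis library was above every control, though sepsis 3 stood well above sepsis 2. It rose 4.47-fold, by 2.16 on the log2 scale (SE 0.35, adjusted p = 0.000556), and by 1.66 without sepsis 3. Bmp1, which removes the carboxy-terminal propeptide, had 1.59, 4.39 and 4.09 CPM in sepsis, against 7.19, 7.19, 5.999, 5.04 and 8.26 CPM in control. Its fall of 0.97 (SE 0.32, adjusted p = 0.0222) did not pass without sepsis 1, at -0.67, without control 5, at -0.90, or with library totals alone, at -0.55. Pcolce, whose product enhances Bmp1 activity, had 3.97, 4.81 and 4.09 CPM in sepsis, against 26.3, 26.9, 12.3, 17.3 and 16.5 CPM in control. It fell by 2.20 (SE 0.29, adjusted p = 4.07e-05). Pcolce2, its relative, had 3.71, 5.02 and 3.87 CPM in sepsis, against 8.85, 12.2, 11.1, 6.84 and 14.6 CPM in control, and fell by 1.34 (SE 0.28). For both enhancers the sepsis libraries lay together, below all controls.

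Cross-linking enzymes differed within the family. Loxl2, which acts on type IV collagen among others, had 1.85, 2.30 and 2.05 CPM in sepsis, against 21.0, 12.8, 8.70, 19.8 and 11.1 CPM in control. Its fall of 2.80 on the log2 scale (SE 0.35, adjusted p = 2.72e-05) was the largest among the processing genes tested. Loxl1, known for elastic fibres, had 4.503, 7.95 and 4.09 CPM in sepsis, against 22.7, 12.5, 6.90, 11.2 and 12.1 CPM in control. The groups overlapped in 1 library each, and its fall of 1.23 (SE 0.37) did not pass without sepsis 1, at -1.12, without sepsis 3, at -1.05, with library totals alone, at -0.80, or with limma-voom, at -1.13. Loxl3 was called lower with overlapping groups, at a log2 fold change of -1.50 (SE 0.49), and did not pass without sepsis 2, at -1.45, without sepsis 3, at -1.18, with library totals alone, at -1.09, or with limma-voom, at -1.16. It passed no expression filter without control 1, 3, 4 or 5. Lox, the founding member, went the other way in level: it had 12.2, 11.3 and 10.7 CPM in sepsis, against 17.1, 5.31, 3.90, 6.84 and 5.08 CPM in control. The sepsis libraries were above 4 of the 5 controls and below control 1. Its log2 fold change of 0.55 (SE 0.40) did not pass, and without control 1 it passed as higher, at 1.11. Plod2 and Loxl4 were too sparse to be tested.

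Ratios of 2 genes within a library do not depend on how libraries are scaled, and 15 such ratios were set against each other between the groups. The test was an exact permutation of the libraries, two-sided, whose smallest possible p is 0.0179. Of these, 9 reached that p, with an adjusted p of 0.0298 over the 15. The log2 ratio of Col1a1 to Col1a2 was -2.87 ± 0.69 in sepsis (SD, n = 3) and -1.68 ± 0.17 in control (n = 5), so the transcripts of the 2 chains of type I collagen did not fall in step. Sepsis 3, at -2.10, was close to the lowest control, at -1.88, and the sepsis values of Col1a1 rest on 7, 30 and 47 reads. Col5a2 to Col1a2 was -3.20 ± 0.43 in sepsis and -5.30 ± 0.48 in control, so the type V gene fell less than the type I gene. Col6a1 to Col1a1 was -1.19 ± 1.45 in sepsis and -3.82 ± 0.57 in control, a difference of 2.63 on the log2 scale. Col1a1, Col6a1 and Col6a2 passed the expression filter through the controls alone, which favours falls among them. Within type VI no unequal change was detected: the difference was -0.05 for Col6a1 to Col6a2 and -0.03 for Col6a3 to Col6a1, with SDs of 0.89 and 0.99 in sepsis. Col4a1 to Col4a2 was 1.06 ± 0.19 in sepsis and 1.17 ± 0.10 in control, also without a called difference.

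The ratios of Lox, Serpinh1, Bmp1 and Pcolce to Col1a1 were higher in sepsis. Col1a1 itself fell by 5.26 on the log2 scale, and none of these processing genes was called higher. Col1a1 and Bmp1 passed the expression filter through the controls alone. The log2 ratio of Lox to Col1a1 was 1.15 ± 1.34 in sepsis (SD, n = 3) and -5.03 ± 0.17 in control (n = 5). That of Serpinh1 to Col1a1 was 1.53 ± 0.43 in sepsis and -3.27 ± 0.41 in control, and that of Bmp1 to Col1a1 was -0.69 ± 0.60 in sepsis and -5.02 ± 0.79 in control. Even Pcolce, which fell, was at -0.23 ± 1.21 in sepsis and -3.53 ± 0.56 in control relative to Col1a1. These ratios share Col1a1 and are not independent of each other. The ratio of Lox to Col1a1 lay between -5.27 and -4.80 in the controls, control 1 included, though Lox had only 13 to 19 reads in the other controls. Col15a1 to Col4a1 was -4.21 ± 0.76 in sepsis and -2.40 ± 0.08 in control, so these basement membrane genes moved apart. P4ha1 to P4ha2 was 0.57 ± 0.42 in sepsis and 1.16 ± 0.20 in control, which did not pass after adjustment, at 0.0536 by the exact permutation test, and Plod3 to Plod1 and Col3a1 to Col1a1 did not pass either.

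**Figure D3:**
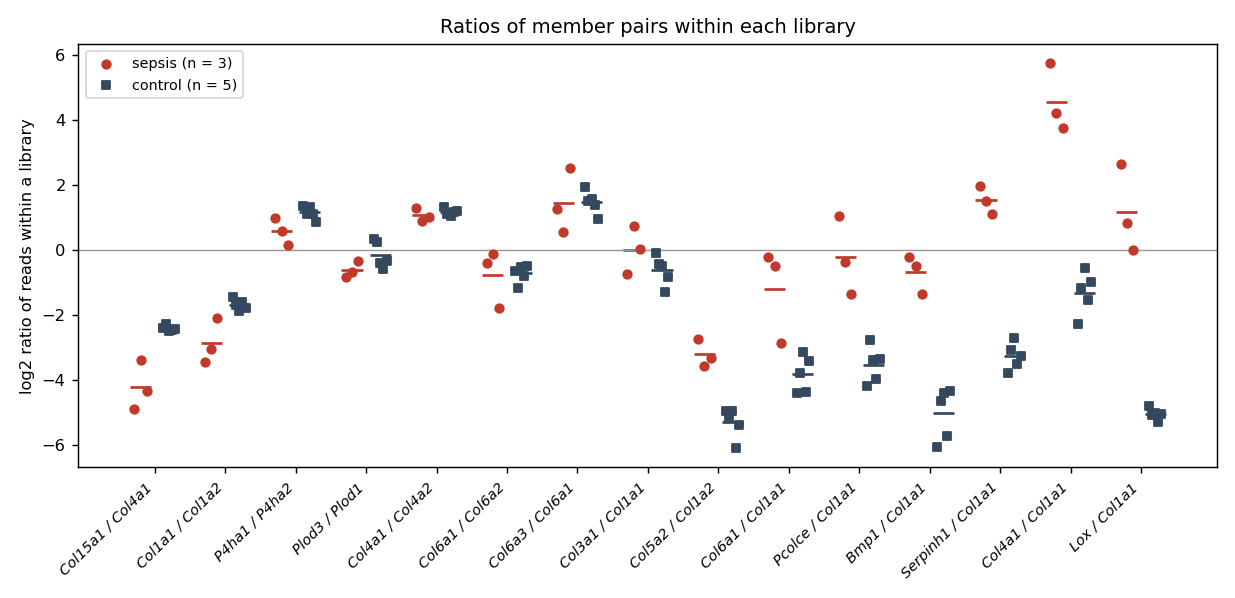
Log2 ratio of reads of 2 genes within each library (y axis) for 15 pairs, ordered by the difference between groups, with sepsis libraries as circles left of control libraries as squares and bars for the means. For Lox to Col1a1 the sepsis libraries sit between 0.00 and 2.63 and the controls between -5.27 and -4.80.

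Type IV genes took the place of fibrillar genes as the largest share of these reads in sepsis. Col1a1, Col1a2 and Col3a1 made up 7.39%, 15.6% and 12.9% of the reads of all 60 genes in the sepsis libraries, against 74.8%, 63.4%, 59.2%, 69.4% and 64.1% in the controls. Col4a1 and Col4a2 made up 44.96%, 40.3% and 41.2% in sepsis, against 4.65%, 8.21%, 11.0%, 7.75% and 9.17% in control. The summed level of fibrillar genes was 74.4 ± 32.3 CPM in sepsis (SD, n = 3) and 1264 ± 653 CPM in control (n = 5), or 985 ± 216 CPM in the 4 controls without control 1. For type VI it was 13.3 ± 4.68 CPM in sepsis and 93.6 ± 30.2 CPM in control, or 80.3 ± 6.13 CPM without control 1. For type IV it was 185 ± 33.6 CPM in sepsis and 134 ± 6.94 CPM in control. Processing genes summed to 139 ± 34.2 CPM in sepsis and 172 ± 33.0 CPM in control, with Adamts2 the largest contributor in sepsis. Fibrillar reads were thus 0.242 to 0.509 times type IV reads in the sepsis libraries and 5.65 to 16.6 times in the controls.

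Several lists of cell type markers also differed in level between the groups. The counts that follow stand beside 25.2% lower and 25.2% higher over all genes tested. In bulk tissue, fewer cells of a type and less RNA per cell cannot be told apart. Of 11 tested fibroblast and fibro-adipogenic progenitor markers 9 fell, with a median of -1.36, and the list of 12 summed to 541 to 750 CPM in sepsis and 1329 to 1461 CPM in control. Gsn and Dcn, the most abundant of them, fell by 1.36 (SE 0.12) and 0.88 (SE 0.12) on the log2 scale, and the defining marker Pdgfra by 0.98 (SE 0.21). The 9 called changes ran from -3.36 for Clec3b to -0.88 for Dcn, with Pi16, Lum and Dpt at -2.70, -2.35 and -2.02. Ly6a and Cd34, at 0.48 and -0.15, did not pass. Col1a1 was also set against Dcn and Pdgfra, which had the smallest called falls of the list. It had 0.0076 to 0.0318 reads per Dcn read in sepsis and 0.230 to 0.979 in control. Against Pdgfra the ratio was 0.28 to 1.88 in sepsis and 8.96 to 32.3 in control, a comparison chosen after the values were seen and not tested. Tendon markers summed to 9.32 to 24.1 CPM in sepsis and 144 to 229 CPM in control, with 5 of 6 tested lower and Kera at 0 reads in sepsis. Thbs4, the most abundant of them, was lower at a log2 fold change of -3.00 (SE 0.38). The part of fibroblast and tendon markers in the fibrillar and type VI result was not tested.

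Beside the type IV genes, 4 of 10 endothelial markers rose and 2 fell, and their summed level overlapped between groups, at 307 to 381 CPM in sepsis and 281 to 352 CPM in control. Ptprb and Flt1 were the most abundant, with log2 fold changes of -0.09 (SE 0.16), not passed, and -0.51 (SE 0.18), lower. Kdr fell by 0.74 (SE 0.16), while Pecam1 and Cdh5 rose by 1.05 (SE 0.16) and 0.48 (SE 0.17), and Esam and Cldn5 rose as well. Col4a1 had 1.55 to 1.87 reads per Pecam1 read in sepsis and 2.34 to 2.97 in control, and 3.59 to 6.74 reads per Cdh5 read in sepsis and 3.97 to 5.49 in control. Against other endothelial genes the order differed: Col4a1 had 1.74 to 3.11 reads per Flt1 read in sepsis and 0.980 to 1.98 in control, and 3.74 to 4.46 reads per Kdr read in sepsis and 1.55 to 2.16 in control. The part of endothelial markers in the type IV result was not tested. Leukocyte markers summed to 270 to 458 CPM in sepsis and 67.4 to 171 CPM in control, with 5 of 7 tested higher and with Cd3e at 0 reads in sepsis and 6 in control and Cd79a at 0 reads in both. Lyz2 and Cd68 rose by 1.86 (SE 0.52) and 4.87 (SE 0.36). In mural cells, the muscle and pericyte cells of vessel walls, 3 of 8 markers fell, and their sum was 210 to 222 CPM in sepsis and 285 to 344 CPM in control, with Rgs5 and Acta2 lower by 0.65 (SE 0.11) and 1.13 (SE 0.20). Schwann cell markers summed to 37.9 to 55.3 CPM in sepsis and 76.3 to 164 CPM in control. All 10 muscle fibre markers were called lower, Myh4 by 0.57 (SE 0.14) and Tnnt3 by 0.77 (SE 0.12). Satellite cell markers summed to 10.6 to 55.9 CPM in sepsis and 22.5 to 25.4 CPM in control. This sum is carried by Vcam1, which rose by 3.25 (SE 0.58), and without it the other 3 genes summed to 4.24 to 10.04 CPM in sepsis and 19.1 to 23.1 CPM in control, with Chodl lower by 1.57 (SE 0.25).

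**Figure D4:**
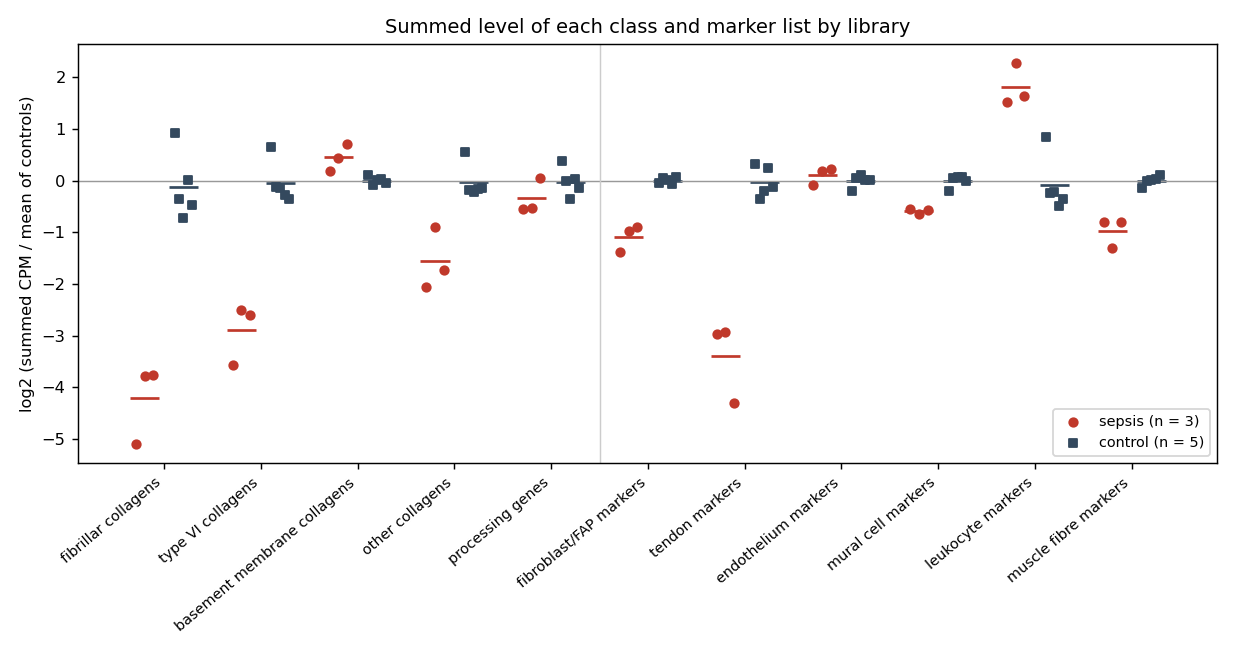
Log2 of the summed CPM of each gene class (left) and cell type marker list (right) relative to the mean of the controls, with sepsis libraries (circles) left of control libraries (squares) and bars for the mean of the log2 values. Fibrillar and tendon sums lie several log2 units below 0 in sepsis, type IV and endothelial sums lie within 1 log2 unit of 0, and control 1 is the high square of the fibrillar list.

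Few of the other genes of collagen folding and secretion were called changed. Of 18 tested, 3 rose and 1 fell, beside 25.2% higher and 25.2% lower over all genes. Their median log2 fold change was 0.19. Tmem38b, a potassium channel of the endoplasmic reticulum needed for collagen secretion from bone cells, rose by 2.05 (SE 0.21), and Mia3, which packs procollagen for export, by 0.58 (SE 0.14). P4hb, the partner subunit of the prolyl 4-hydroxylases, rose by 0.39 (SE 0.11). The gene that fell was Creb3l1, a transcription factor known to activate Col1a1 and Col1a2, by 2.13 (SE 0.34, adjusted p = 0.000183). Among genes of fibril assembly 8 of 11 tested fell and 1, the protease gene Furin, rose, beside the same shares over all genes. The fibril-binding proteoglycan genes Fmod and Dcn fell by 4.27 (SE 0.35) and 0.88 (SE 0.12), and the microfibril gene Fbn1 by 2.15 (SE 0.26). Postn, a matrix gene linked to tissue repair, did not pass the expression filter, with 3, 7 and 4 reads in sepsis and 207, 4, 8, 5 and 8 in control.

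Among genes that break down or take up collagen, 4 of 15 tested were higher and 6 lower, beside 25.2% higher and 25.2% lower over all genes. Ctsl, a lysosomal protease, rose by 2.42 (SE 0.15). Mmp15, a membrane-bound protease, fell by 2.52 (SE 0.36). Mmp2 fell by 0.78 (SE 0.23), Mmp14 had 0.32 (SE 0.32), and Mmp13, a collagenase, had no read in sepsis and 37 in control, every one of them in control 1. In the list of transforming growth factor beta signalling 6 of 20 tested rose and 7 fell, beside the same shares. Tgfb2, a ligand, fell by 1.53 (SE 0.21), Ltbp4, which stores the ligand in the matrix, by 2.31 (SE 0.22), and the mediator Smad3 by 2.38 (SE 0.30), while Wwtr1, a coactivator, rose by 1.08 (SE 0.14). Of 8 collagen receptor genes tested 5 fell and 1 rose, beside the same shares over all genes. The receptor kinase gene Ddr2 and the type VI receptor gene Antxr2 fell by 1.51 (SE 0.20) and 1.98 (SE 0.30), and the integrin subunit gene Itgb1 rose by 0.61 (SE 0.13).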

How the data were processed

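RNA-seq libraries were made by the authors from 25 ng of total RNA of gastrocnemius muscle with a QuantSeq 3′ kit, per the labels' protocols, and the genome build was GRCm39, per the submitters' processing notes. The aligner, counter, strand setting and annotation release are not stated in the sources used here. Raw gene-level read counts of 8 separate libraries were deposited. All 60 member identifiers carried the same symbol in the reference name table.

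Genes were filtered with edgeR 4.0.16 in R 4.3.3 (minimum count 10, minimum total 15), which left 9810 genes, scaled by TMM and tested by quasi-likelihood (robust) over all 8 libraries, without covariates. P-values were Benjamini-Hochberg adjusted over all genes tested, with a threshold of 0.05. CPM uses TMM-scaled library sizes, and 1 read was worth 0.234 CPM in an average sepsis library and 0.313 CPM in an average control. The SE is the absolute log2 fold change divided by the square root of F. Ratios used a prior of 0.5 reads and were tested by exact permutation over all 56 assignments of 3 sepsis labels. Counting intervals cover counting error only. The procedure was tested on simulated data. Overlap of groups was read from CPM.

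The members and lists were chosen with earlier results of these data known. Values in every library are given for the 25 most abundant tested members and any that changed by at least 2 on the log2 scale past the threshold. Of the other lists, the 3 genes with the smallest p are named per list, and of the markers the 2 most abundant of a list, except where a gene is not reported here. Named outside this rule, after their values were seen, were Pdgfra, Clec3b, Pi16, Lum, Dpt, Ly6a, Cd34, Pecam1, Cdh5, Kdr, Esam, Cldn5, Kera, Cd3e, Cd79a, P4hb, Furin, Postn, Mmp2, Mmp13, Mmp14 and Smad3. Alternatives covered scaling, filtering, DESeq2 1.42.0, limma 3.58.1 (voom with sample quality weights), the replicate number as a block, and each library left out. No 2 libraries of a group agreed within sampling noise.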

Additional observations from a re-analysis of the deposited data

Results flagged for a closer look

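In the 5 controls, 8 of the 35 tested genes had a library far from the others, by a gap test that flags about 1 group in 20 by chance (the 3 sepsis libraries are too few for it). In 7 of the 8 that library was control 1, and it was the highest. Control 1 had 455 CPM of Col3a1, 86.3 CPM of Col6a3, 55.8 CPM of Col5a1, 42.0 CPM of Col5a2, 23.2 CPM of Col14a1, 18.2 CPM of Col8a1 and 17.1 CPM of Lox. The gap between control 1 and the next control was 0.922 of the whole range for Col14a1 and 0.750 for Col5a1, the widest and narrowest of the 7. Control 4 was high in P4ha1, at 29.5 CPM. Over the 35 tested genes control 1 was the highest control in 23, and its level relative to the mean of the other controls had a median of 1.60.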

How the results depend on the processing

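Across the 16 alternatives, 538 fold changes of single members were compared with the main fit, leaving out members that fell under the filter there. Of these, 513 kept their direction where called and their side of the threshold. Another 22 no longer passed, 3 newly passed and none that was called changed sign. A call lost because the gene was no longer tested is not among the 22. The number of members lower was 25 and higher 3, and it was 16 lower with a minimum count of 30, where fewer genes are tested, and 1 higher with the replicate number as a block. With single libraries left out, members lower ran from 23 to 24 and members higher from 3 to 4. With library totals alone the median of all genes moved to 0.43, genes called were 4251 higher and 1392 lower (2475 and 2468 with TMM), which is 75.3% higher against 50.1%, and members were 4 higher and 20 lower. Processing genes were then 2 higher and 4 lower with a median of -0.55, and the type IV median was 0.88. The type IV genes called lower ran from 0 to 1 and the processing genes called higher from 1 to 2 with single libraries left out. With no filter, where sparse genes enter, the type IV median was -0.74, and the other collagens had 8 lower and a median of -1.62. At a minimum count of 30 the other collagens had 1 lower and a median of -1.23, and the fibrillar median was -3.59. Ratios past the threshold, 9 of 15, ran from 0 to 10 with single libraries left out, and were 0 when any 1 sepsis library was left out, because 2 against 5 libraries cannot pass after adjustment. The labels do not say whether same-numbered libraries of the 2 groups belong together. Their deviations correlated at -0.12, 0.04 and -0.02 over genes, where unlike-numbered pairs ran from -0.09 to 0.13, which cannot decide it. With the replicate block, type IV genes called higher were 0 (Col4a1 at 0.46 and Col4a2 at 0.56) and processing genes lower were 5, and Col3a1, Loxl3, P4ha2 and Bmp1 no longer passed. With voom and sample quality weights Col3a1, Col27a1, Loxl1 and Loxl3 no longer passed, with Col3a1 at -5.15. The 25 members not tested are limited by depth, 11 of them with at most 10 reads in all.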

Other observations

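The log2 ratio of Lox to Col1a1 reads was 2.63, 0.83 and 0.00 in the sepsis libraries. In the 5 controls it was -4.80, -5.06, -5.00, -5.27 and -5.03, with both genes high in control 1. Lox had only 13 to 19 reads in the other controls. The control SD of this ratio was 0.17, and that of Col15a1 to Col4a1 was 0.08. Postn had 207 reads in control 1 and 4 to 8 in the other controls, 28.6 times their mean CPM, while Fn1, Bgn and Lum were 3.18, 3.04 and 2.95 times their mean there. Tnmd, a tendon marker, had 0, 2 and 0 reads in the sepsis libraries and 17 to 39 in the controls, while Col1a2 had 82, 254 and 204 reads in the sepsis libraries. Among neighbouring member genes in the RefSeq models, both genes of each tested pair had the same direction: Col3a1 with Col5a2 lower, Col6a1 with Col6a2 lower and Col4a1 with Col4a2 higher. Every tested fibrillar and type VI gene was lower, so the agreement of the Col3a1 and Col6a1 pairs is not particular to neighbours. These values are descriptions chosen after they were seen.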
